A study of Mus musculus with 2 samples.

Results

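Liver endothelial cells (ECs) carrying the iSuRe-HadCre allele were compared with liver ECs carrying the iSuRe-Cre allele, for endogenous genes. Both alleles add Cre to, and mark with the membrane reporter MbTomato, cells in which a CreERT2 has acted. In iSuRe-Cre, a transgene on chromosome 17, MbTomato and Cre come on together and stay on permanently. In iSuRe-HadCre, placed in the Rosa26 locus, Cre and the recombinase FlpO come first, and MbTomato follows only once FlpO has removed both of their genes. All groups were C57BL/6 pups with the endothelial driver Cdh5-CreERT2, given 4-hydroxytamoxifen at 40 mg/kg on postnatal day 3 and collected 3 days later, at postnatal day 6 to 7, and their CD31+ cells were sorted on MbTomato. The study's figures add that the iSuRe groups carried floxed Notch1, which the labels do not state, and the genotype of the control group is not given in the sources used here. All cells came from 1 10x library, in which an antibody hashtag marked the tissue and genotype of each cell, and the 2 deposited samples are its gene and its hashtag reads.

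Members were barcodes that passed the quality limits, expressed Cdh5, the endothelial cadherin, and carried exactly 1 of the 6 hashtags above its minimum. There were 76 iSuRe-HadCre liver cells (tag HTO307, at least 25 hashtag UMIs) and 858 iSuRe-Cre liver cells (tag HTO302, at least 140), together 934 of the 7704 barcodes with Cdh5 and of the 14348 past the quality limits. UMIs are unique molecular identifiers, 1 per captured transcript. The iSuRe-HadCre group held 681924 endogenous UMIs with a median of 7383.5 gene UMIs per cell, and the iSuRe-Cre group 9336842 with a median of 8765. The same rule gave 54 control liver cells, and 311 iSuRe-HadCre, 435 iSuRe-Cre and 254 control heart cells, whose levels stand beside those of liver as background.

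Each group is 1 hashtagged sample, and the number of pups behind it is not given in the sources used here. There are therefore no replicates, no test and no p-value. Levels are CPM, the UMIs of a gene in all cells of a group for every 1000000 endogenous UMIs of that group. Ratios are iSuRe-HadCre over iSuRe-Cre and carry exact conditional 95% intervals. These cover counting error of the summed UMIs only, and not the spread between cells or between animals. A gene is called past 2-fold when its CPM with 10 CPM added differed at least 2-fold. Fewer cells of a kind and less RNA per cell cannot be told apart in such sums.

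Hashtag calls had weak points that bear on the values below. Tag HTO302 had a median of 28 UMIs over all barcodes past the quality limits, against 1 to 3 for the other 5 tags. Of the 76 iSuRe-HadCre cells, 7 carried 73 to 124 UMIs of it. Another group tag had at least as many UMIs as the cell's own in 8 of the 76 iSuRe-HadCre cells and 0 of the 858 iSuRe-Cre cells. In addition, 23 of the 76 iSuRe-HadCre cells (30.3%) and 241 of the 858 iSuRe-Cre cells (28.1%) carried at least 100 UMIs of a CMO tag or at least 25 of HTO304 or HTO308, tags that no group label names. These cells are counted in the main values. Values without them (53 and 617 cells) follow for the main results. They also follow for lists counted in the text below whose number of calls moved with them by over 1.5 times. Other lists moved as well. Without these cells, tip cell genes past 2-fold higher went from 2 to 7 of 19. Flow responsive genes went from 2 to 4 of 16, immediate early stress genes from 1 to 4 of 23, and BMP and TGF-beta genes from 3 to 1 of 20.

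The study also required WPRE, a sequence behind the reporter, above 0.5 on its log scale. That limit, not used here, would keep 66 of the 76 iSuRe-HadCre cells (86.8%) and 379 of the 858 iSuRe-Cre cells (44.2%). The reporter sequences differed in the direction of the labels. WPRE was at 1072 CPM in iSuRe-HadCre liver and 105 CPM in iSuRe-Cre liver, and Tomato was at 192 and 33.8 CPM. The Cre sequence, which the CreERT2 driver also contains, was at 26.4 and 26.7 CPM. Notch1 (chr2:26457903-26516663, build GRCm38), the receptor gene that the study deleted, was low in both groups. It was at 30.8 CPM (21 UMIs) in iSuRe-HadCre and 21.4 CPM (200 UMIs) in iSuRe-Cre liver, against 160.4 CPM in control liver. The ratio between the alleles was 1.44 (95% interval 0.871 to 2.26), which includes 1. Without the cells carrying other tags it was 0.672 (0.214 to 1.61), and among the cells with at least 3 sinusoidal genes, a subset described with those genes, it was 1.77 (1.04 to 2.83), an interval above 1. A Notch1 UMI was seen in 14.5% of iSuRe-HadCre cells (95% exact binomial interval 7.45% to 24.4%), in 14.1% of iSuRe-Cre cells (11.8% to 16.6%) and in 75.9% of control liver cells. In Cdh5-negative barcodes rich in hepatocyte genes the share was 7.3%, at a median of 4963 UMIs.

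The liver holds a specialised endothelium. Liver sinusoidal ECs line the sinusoids between the portal and central veins, have open fenestrae and scavenge proteins and particles from blood through receptors such as the stabilins, the mannose receptor and Fc receptors. The large vessels of the liver and the capillaries of other organs carry a continuous endothelium with other markers, and Notch signalling is known for its part in arterial identity.

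Over all genes, 10839 had at least 50 UMIs in the 2 liver groups together. Of these, 232 (2.14%) were past 2-fold higher and 209 (1.93%) past 2-fold lower in iSuRe-HadCre, and the median log2 ratio over all of them was 0.05. Without the cells carrying other tags, 2.92% were higher and 2.92% lower.

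Genes of the sinusoidal list were lower in iSuRe-HadCre liver. Of 16 listed genes, 15 had enough UMIs, 13 of these were past 2-fold lower and 0 higher, with a median log2 ratio of -1.87. The whole list summed to 1909 CPM in iSuRe-HadCre, 7228 CPM in iSuRe-Cre and 1039 CPM in control liver. Free RNA, taken from barcodes of 10 to 100 UMIs, held 1262 CPM of it. Control liver thus lay below iSuRe-Cre liver as well.

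Stab2 (chr10:86841198-87008025), which encodes stabilin-2, the hyaluronan scavenger receptor, was at 387 CPM in iSuRe-HadCre, 1446 CPM in iSuRe-Cre and 30.5 CPM in control liver. Its ratio was 0.268 (0.236 to 0.302). Mrc1, the mannose receptor, was at 128, 647 and 24.1 CPM, with a ratio of 0.197 (0.158 to 0.244). Both genes had their highest level in iSuRe-Cre liver, and both were at or under 15.2 CPM in every heart group.

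The furthest ratios belonged to the nuclease gene Dnase1l3, the lectin gene Clec4g and the inhibitory Fc receptor gene Fcgr2b. Dnase1l3 was at 33.7 CPM in iSuRe-HadCre and 393 CPM in iSuRe-Cre liver (ratio 0.0858, 0.0543 to 0.129), and it was at 0 in control liver. Clec4g was at 30.8 and 309 CPM (0.0998, 0.0617 to 0.153) and Fcgr2b at 35.2 and 262 CPM (0.134, 0.0859 to 0.2). The cathepsin gene Ctsl, also active outside sinusoids, was at 309 and 990.3 CPM (0.312, 0.271 to 0.358). The members that stayed within 2-fold were Stab1 (151 and 304.7 CPM) and Gata4 (132 and 150.5 CPM), the latter a transcription factor of sinusoidal ECs. Without the cells carrying other tags, 13 of 15 were again past 2-fold lower, with a median of -2.02.

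**Figure D1:**
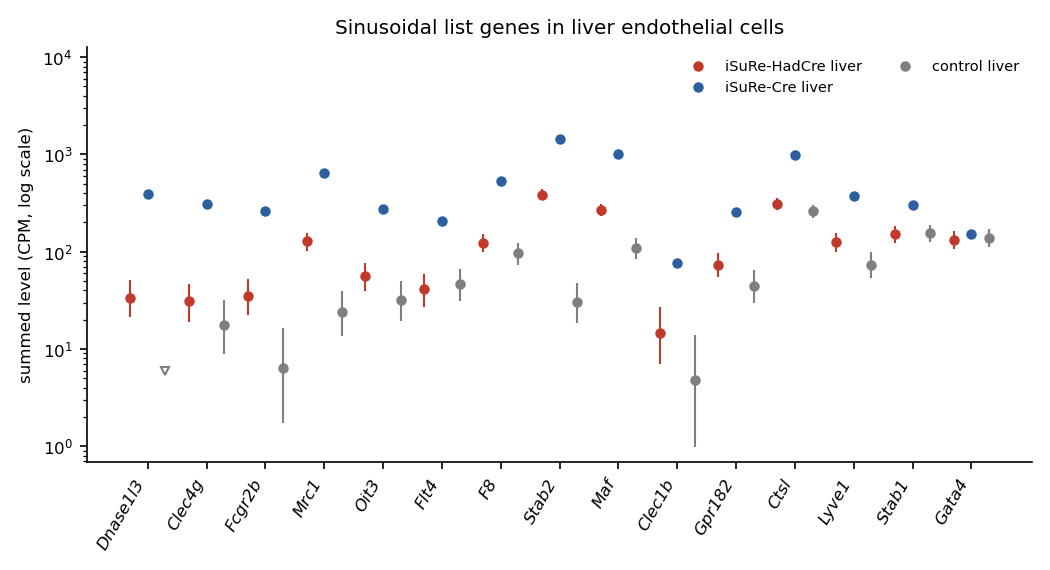
Levels of the 15 measured sinusoidal list genes, in CPM on a log scale, in iSuRe-HadCre, iSuRe-Cre and control liver ECs, ordered by the log2 ratio between the alleles. Lines are exact 95% Poisson intervals and the open triangle is the upper bound for a gene with 0 UMIs. The iSuRe-Cre point lies above the iSuRe-HadCre point for each gene.

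Fewer iSuRe-HadCre cells carried the sinusoidal genes together. At least 3 of the 16 genes had a UMI in 49 of 76 iSuRe-HadCre cells (64.5%, 95% exact binomial interval 52.7% to 75.1%) and in 787 of 858 iSuRe-Cre cells (91.7%, 89.7% to 93.5%). With each cell thinned to 2000 UMIs the shares were 30.1% and 71.8%, and without the cells carrying other tags, unthinned, they were 67.9% and 96.4%. In control liver 39 of 54 cells reached it (72.2%, 58.4% to 83.5%), and 31.7% after thinning, so control liver was near iSuRe-HadCre and iSuRe-Cre lay above both. A minimum of 3 genes is a point on a range, since 11 iSuRe-HadCre and 46 iSuRe-Cre cells had exactly 1 gene fewer and 10 and 42 had exactly 3. It also does not separate tissues well, because 32.2% of iSuRe-HadCre and 63.4% of iSuRe-Cre heart cells reached it unthinned, against 3.25% and 5.01% after thinning.

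Counted at 10 or more genes, a limit chosen after the values were seen, 9 of 76 iSuRe-HadCre cells (11.8%, 5.56% to 21.3%) and 487 of 858 iSuRe-Cre cells (56.8%, 53.4% to 60.1%) reached it. Control liver had 1 such cell of 54 (1.85%), and the 2 iSuRe heart groups had 0. The most frequent number in iSuRe-Cre liver was 14 genes, in 19.5% of cells, while in iSuRe-HadCre liver it was 1 and 4 genes, in 15.8% each. The cells carrying other tags held fewer of them, 26.1% of such iSuRe-Cre cells against 68.7% of the rest, and 4.35% of such iSuRe-HadCre cells against 15.1% of the rest.

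**Figure D2:**
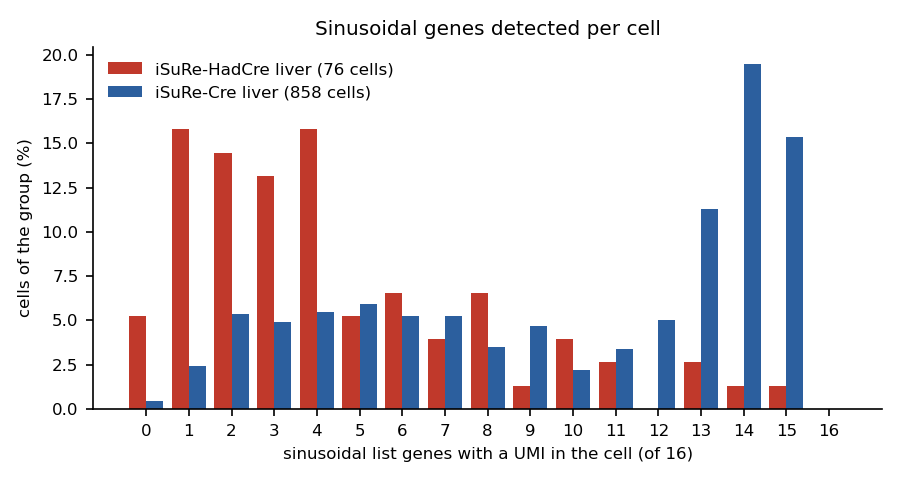
Share of the cells of each liver group (y axis, percent) by the number of the 16 sinusoidal list genes with a UMI in the cell (x axis). Of 858 iSuRe-Cre cells, 487 have 10 or more, against 9 of 76 iSuRe-HadCre cells.

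Arterial genes went the other way. Of 15 measured members of the arterial list, 11 were past 2-fold higher in iSuRe-HadCre liver and 0 lower, with a median log2 ratio of 1.32. The list summed to 3955 CPM in iSuRe-HadCre, 1262 CPM in iSuRe-Cre and 2579 CPM in control liver. Without the cells carrying other tags, 11 of 14 were past 2-fold higher, with a median of 1.55.

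Cxcl12 (chr6:117168535-117181367), the chemokine that binds CXCR4, was at 1664 CPM in iSuRe-HadCre, 151 CPM in iSuRe-Cre and 609 CPM in control liver. The ratio was 11.1 (10.2 to 12). Its 1135 UMIs came from 28 of the 76 cells and 360 of them from 1 cell, without which, and without the highest iSuRe-Cre cell, the log2 ratio was 3.04. A Cxcl12 UMI was seen in 36.8% of iSuRe-HadCre and 20.3% of iSuRe-Cre cells, beside 46.7% of hepatocyte-rich barcodes, so the share of cells alone is not above background. In heart, Cxcl12 was at 1809, 795 and 1285 CPM, so iSuRe-HadCre was the highest group there as well.

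Gja4, a connexin of arterial ECs, was at 139 CPM in iSuRe-HadCre and 40.6 CPM in iSuRe-Cre liver (ratio 3.43, 2.71 to 4.31), beside 141 CPM in control liver. Efnb2, the arterial ephrin, was at 179, 65.8 and 188 CPM (2.72, 2.22 to 3.31), and the semaphorin gene Sema3g was at 39.6, 7.28 and 49.7 CPM (5.44, 3.35 to 8.61). For these genes iSuRe-HadCre was near control liver and iSuRe-Cre lay below both. Fbln5, which encodes the elastic fibre protein fibulin-5, was at 280.1, 85.4 and 197 CPM (3.28, 2.79 to 3.85), and Mgp, matrix Gla protein, at 369.5, 121 and 210.1 CPM (3.05, 2.65 to 3.5). Nrp1, a neuropilin that arterial and capillary ECs share, was at 683, 565 and 597 CPM (1.21, 1.1 to 1.33).

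Of 14 measured markers of continuous capillaries, 5 were past 2-fold higher and 0 lower, with a median log2 ratio of 0.77. Cav1, the main protein of caveolae, was at 613 CPM in iSuRe-HadCre, 164 CPM in iSuRe-Cre and 569 CPM in control liver (ratio 3.74, 3.35 to 4.17). Cd34 was at 365, 116 and 329 CPM (3.14, 2.72 to 3.61). Fabp4, a fatty acid carrier and the highest gene of the list, differed less, at 4593, 3489.7 and 3706 CPM (1.32, 1.27 to 1.37). In heart none of the 14 was past 2-fold higher in iSuRe-HadCre and 2 were lower, where 1.6% of 10774 genes were higher and 0.835% lower.

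Extracellular matrix and angiocrine genes varied by gene. Of 28 measured matrix and integrin genes, 3 were past 2-fold higher and 0 lower, with a median log2 ratio of 0.61, and without the cells carrying other tags 8 were higher, with a median of 0.79. Col15a1, a collagen of vessel basement membranes, was at 95.3 CPM in iSuRe-HadCre and 16.5 CPM in iSuRe-Cre liver (5.78, 4.26 to 7.77), and Col18a1, the source of endostatin, at 218 and 64.5 CPM (3.39, 2.81 to 4.06). Of 13 measured genes for factors that liver ECs send to hepatocytes and other cells, 5 were higher and 1 lower. Pdgfb, which recruits mural cells, was at 170.1 and 37.5 CPM (4.54, 3.65 to 5.61), Wnt9b, a Wnt ligand of the central vein, at 74.8 and 22.6 CPM (3.31, 2.39 to 4.51), and Rspo3, which enhances Wnt signalling there, at 642 and 671 CPM (0.957, 0.867 to 1.05). These 2 depended on the hashtag calls, since with HTODemux their log2 ratios were -0.33 for Wnt9b, against 1.38 here, and -2.04 for Rspo3, against -0.06. The pan-endothelial list of junction and surface genes had 0 of 23 members past 2-fold in either direction.

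**Figure D3:**
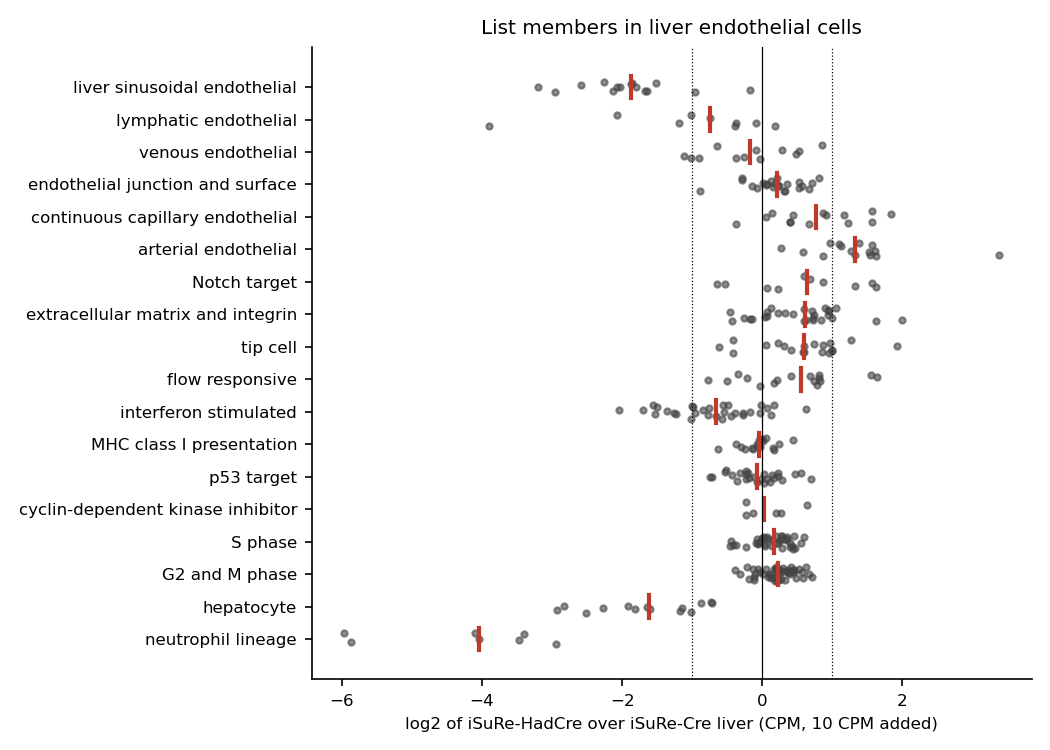
Log2 ratio of iSuRe-HadCre over iSuRe-Cre liver, with 10 CPM added, for each measured member (point) of 18 gene lists, with the median of the list as a red bar. Dotted lines mark 2-fold. Sinusoidal and neutrophil lists lie to the left and the arterial list to the right, and members of the p53, cell cycle and junction lists lie within 2-fold.

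The Notch receptor gene Notch4 and the Notch target Hey1 were both higher in iSuRe-HadCre. Notch4 (chr17:34564268-34588503) was at 35.2 CPM (24 UMIs in 18 cells) in iSuRe-HadCre, 4.82 CPM (45 UMIs in 42 cells) in iSuRe-Cre and 35.3 CPM in control liver, with a ratio of 7.3 (4.26 to 12.2). In heart it was at 52.9, 3.73 and 47.9 CPM, so both iSuRe-Cre groups were low and the other 4 groups lay between 35.2 and 52.9 CPM. Hey1, a transcriptional repressor that Notch signalling induces, had the same order, at 35.2, 4.71 and 41.7 CPM in liver (ratio 7.47, 4.34 to 12.6) and 54.9, 12 and 50.2 CPM in heart.

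Notch4 was the 1 gene past 2-fold of 17 measured pathway genes. With the cells carrying other tags left out 0 of 15 were, because Notch4 was then under 50 UMIs (39.9 CPM in iSuRe-HadCre and 2.94 CPM in iSuRe-Cre, ratio 13.6, 6.63 to 27.6). Of 5 ligand genes, Jag1 (80.7 and 32.3 CPM) and Jag2 (42.5 and 9.96 CPM) were past 2-fold higher, and Dll4, at 46.9 and 19.1 CPM, was just within 2-fold with 10 CPM added. Of 10 measured targets, 3 were past 2-fold higher and 0 lower, namely Hey1, Gja4 and Efnb2, which the arterial list also holds. Hes1, a target that the arterial list does not hold, was at 133 CPM in iSuRe-HadCre, 79.7 CPM in iSuRe-Cre and 188 CPM in control liver (1.67, 1.33 to 2.08).

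Interferon-stimulated genes were lower in iSuRe-HadCre than in iSuRe-Cre liver. These genes are switched on by interferons or by sensors of foreign nucleic acid and serve antiviral defence. Of 31 measured members, 9 were past 2-fold lower and 0 higher, with a median log2 ratio of -0.66. The list summed to 4190 CPM in iSuRe-HadCre, 7888 CPM in iSuRe-Cre and 2936 CPM in control liver. Without the cells carrying other tags, 8 of 30 were past 2-fold lower, with the same median of -0.66.

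Many promoters of these genes hold a pair of GAAA blocks 2 bases apart, the core of the interferon-stimulated response element that STAT and IRF proteins bind. The promoters of 3 of the genes that differed here are shown as RefSeq gives them on build GRCm38.p6, from 250 bases before to 50 after the start, with each match to GAAANNGAAA on either strand in capitals. Ifit3, on the plus strand, is at chr19:34583279-34583578, Isg15, on the minus strand, at chr4:156200769-156201068, and Cxcl10, on the minus strand, at chr5:92348840-92349139.
Ifit3: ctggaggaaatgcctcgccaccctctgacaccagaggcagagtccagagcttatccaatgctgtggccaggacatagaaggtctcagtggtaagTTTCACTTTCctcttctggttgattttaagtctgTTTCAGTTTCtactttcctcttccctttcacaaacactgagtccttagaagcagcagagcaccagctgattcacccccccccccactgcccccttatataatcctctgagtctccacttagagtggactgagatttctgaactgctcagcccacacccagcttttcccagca
Isg15: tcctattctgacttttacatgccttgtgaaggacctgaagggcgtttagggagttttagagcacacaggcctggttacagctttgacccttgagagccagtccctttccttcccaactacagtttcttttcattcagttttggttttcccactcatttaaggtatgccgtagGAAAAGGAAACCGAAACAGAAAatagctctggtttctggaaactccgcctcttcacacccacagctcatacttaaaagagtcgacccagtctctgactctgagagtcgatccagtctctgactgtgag
Cxcl10: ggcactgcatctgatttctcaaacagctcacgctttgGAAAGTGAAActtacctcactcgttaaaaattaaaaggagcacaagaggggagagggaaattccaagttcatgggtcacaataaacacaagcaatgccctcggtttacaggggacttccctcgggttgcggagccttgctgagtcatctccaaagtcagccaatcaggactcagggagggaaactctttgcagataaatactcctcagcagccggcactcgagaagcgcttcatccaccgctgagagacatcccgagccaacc
Matches are found in 14 of 22 list genes with a promoter in the table (63.6%), in 5 of the 7 among those past 2-fold lower, and in 3.44% of all 32851 promoters. A match is a description of the letters and does not show that a factor binds there.

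Isg15, a ubiquitin-like protein, was at 132 CPM in iSuRe-HadCre, 392.4 CPM in iSuRe-Cre and 136 CPM in control liver (ratio 0.336, 0.27 to 0.415). Ifit3 was at 44, 166 and 8.02 CPM (0.265, 0.178 to 0.38), and Rsad2, the antiviral enzyme viperin, at 30.8, 159 and 19.2 CPM (0.194, 0.12 to 0.298). For each of the 3 genes iSuRe-Cre was the highest liver group. Ifit1 and Irf7, named after their values were seen, were at 27.9 and 80.6 CPM and at 24.9 and 90.9 CPM. Ifitm3, the highest gene of the list, was at 1139 and 2266 CPM (0.503, 0.467 to 0.54), just within 2-fold with 10 CPM added.

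Chemokine genes that interferon induces had the same order. Cxcl10 was at 32.3 CPM in iSuRe-HadCre, 305.03 CPM in iSuRe-Cre and 9.62 CPM in control liver (0.106, 0.0662 to 0.16), and Cxcl9 at 20.5, 113 and 0 CPM (0.182, 0.0994 to 0.307). A Cxcl10 UMI was seen in 13.2% of iSuRe-HadCre and 45.1% of iSuRe-Cre cells, beside 46% of Cdh5-negative barcodes rich in hepatocyte genes and 13.3% of erythroid barcodes, so the share in cells is not above background in either group. For Isg15 the shares were 46.1% and 73.4%, beside 25.5% and 33.3% in those barcodes, at median depths of 7383.5, 8765, 4963 and 7108.5 UMIs.

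The 2 heart groups differed in the same direction. Isg15 was at 269 CPM in iSuRe-HadCre, 1281 CPM in iSuRe-Cre and 152 CPM in control heart, and Ifit3 at 52, 304.4 and 23.8 CPM. Of 31 list members measured in heart, 16 were past 2-fold lower in iSuRe-HadCre and 0 higher, with a median log2 ratio of -1.01. Genes of class I antigen presentation, many of which interferon also raises, had 0 of 18 members past 2-fold in liver, with B2m, the light chain of class I molecules, at 856 and 1337 CPM (0.64, 0.588 to 0.696).

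**Figure D4:**
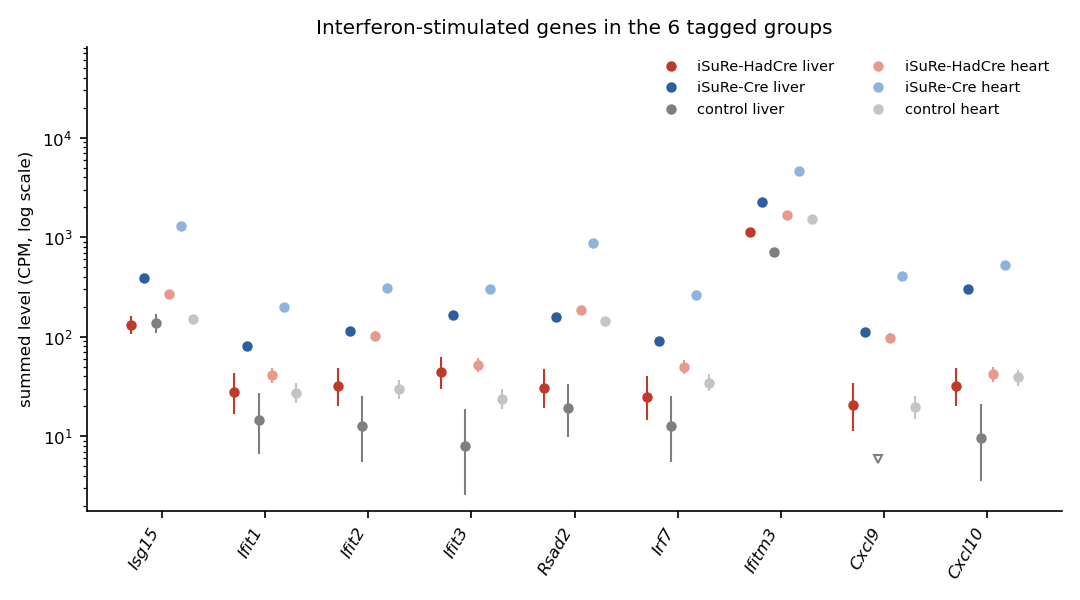
Levels of 9 interferon-stimulated genes, in CPM on a log scale, in the 6 tagged groups, with exact 95% Poisson intervals as lines and an open triangle as the upper bound for 0 UMIs. In each tissue the iSuRe-Cre point lies above the iSuRe-HadCre and the control point for each gene.

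Of 27 measured p53 targets 0 were past 2-fold in either direction, with a median log2 ratio of -0.08 and summed levels of 2222 and 2182 CPM. Cdkn1a, the p53-induced inhibitor of cyclin-dependent kinases, was at 192 CPM in iSuRe-HadCre, 228 CPM in iSuRe-Cre and 176 CPM in control liver, with a ratio of 0.843 (0.701 to 1.01). In heart it was at 244, 499 and 162 CPM. Bax, a mediator of apoptosis, was at 261 and 299 CPM in liver (0.874, 0.746 to 1.02). Of the other lists on growth control, 0 of 6 kinase inhibitors, 0 of 38 S phase genes and 0 of 49 G2 and M phase genes were past 2-fold in liver. Brca1, at 45.5 and 17.7 CPM (2.57, 1.69 to 3.79), was the 1 of 22 repair genes that was. Its log2 ratio was 1.003, and without the highest cell of each gene 0 repair genes were past 2-fold. Leaving out the cells carrying other tags, 3 of 45 G2 and M phase genes were past 2-fold lower, with a median of -0.10 against 0.22 over all cells, and without the highest cell of each gene 2 were.

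Markers of other cells moved with the comparison. The 10 genes of the neutrophil list summed to 51.3 CPM in iSuRe-HadCre, 3626 CPM in iSuRe-Cre, 603 CPM in control liver and 2075 CPM in free RNA, and 7 of 7 measured members were past 2-fold lower. S100a8, a calprotectin subunit of neutrophils, was at 13.2 and 1439 CPM. It had a UMI in 184 of 858 iSuRe-Cre cells (21.4%), beside 24.1% of hepatocyte-rich barcodes, and 3005 of its 13440 UMIs there came from 1 cell. Hepatocyte genes summed to 93.9 and 814 CPM, beside 6395 CPM in free RNA, and 11 of 14 were past 2-fold lower. Without the cells carrying other tags, 0 of 8 measured hepatocyte genes were. Macrophage and Kupffer genes had 3 of 8 members past 2-fold lower, with C1qb at 22 and 121 CPM and a list median of -0.62. With the cells carrying other tags left out 4 of 6 were, at a median of -2.29. The lymphatic list had 4 of 9 members past 2-fold lower. Without cells that held over 0.5% of neutrophil and stefin A genes (76 and 830 cells remained), the neutrophil median was -0.63, and the sinusoidal, arterial and interferon medians were -1.90, 1.32 and -0.67. With the free RNA profile subtracted the last 3 were -1.93, 1.46 and -0.68. The amount to subtract was set from 13 cardiomyocyte genes, of which only 5 had at least 50 UMIs. It came to 14.0% of the iSuRe-HadCre and 11.2% of the iSuRe-Cre liver level.

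The single genes furthest from equal were mostly of these kinds. By the interval bound nearest to 1, the 15 lowest genes were the 7 neutrophil genes S100a8, S100a9, Camp, Ngp, Lcn2, Ltf and Retnlg, the 7 stefin A family genes Stfa1, Stfa2, Stfa2l1, Stfa3, Cstdc4, Cstdc5 and Csta2, and the lymphatic chemokine gene Ccl21a. Cstdc4 had 0 UMIs in iSuRe-HadCre and 346 CPM in iSuRe-Cre, which is at least 78.6-fold lower at a floor of 3 UMIs in the group. Ccl21a was at 0 and 139 CPM, at least 31.6-fold lower, and came from 42 of 858 cells.

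The 15 highest were Inhba, Rps18-ps6, Cdh18, Cxcl12, Cntn5, Ccl5, Nebl, Gm26992, Sost, Rtl4, Chrm3, Mdga2, Slc35f1, Itih5 and Hey1. Several rested on single cells. Of the UMIs of Cdh18, Cntn5, Ccl5 and Rtl4, 96.3% to 100% in iSuRe-HadCre came from 1 cell, and without the highest cell of each group none of the 4 stayed higher. Inhba, which encodes the activin A subunit, was at 208 and 6.53 CPM (31.9, 23.5 to 43.8), with 90 of its 142 UMIs in 1 cell and a log2 ratio of 2.47 without it. Across all genes, 1 cell held 50% or more of the iSuRe-HadCre UMIs of 43 of the 232 genes past 2-fold higher.

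Rps18-ps6 and Nebl were spread over more cells. Rps18-ps6 (chr13:97760072-97760632), a copy of the ribosomal protein gene Rps18, was at 46.9 CPM (32 UMIs in 24 cells) in iSuRe-HadCre, 2.14 CPM (20 UMIs in 17 cells) in iSuRe-Cre and 3.21 CPM in control liver (ratio 21.9, 12.2 to 40.4). In heart it was at 45.8, 1.08 and 2.31 CPM, so both iSuRe-HadCre groups were high and the other 4 low. As a near copy of Rps18 its reads cannot be placed with certainty. Nebl, which encodes an actin-binding protein, was at 138 and 14 CPM (9.82, 7.46 to 12.9), in 12 and 28 cells.

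Of 4 measured Y-linked genes 0 were past 2-fold, while an X-linked gene, Gm26992, was. The span of Gm26992 on the X chromosome overlaps the genes of X inactivation, whose reads cannot be told apart from its own here. It was at 92.4 CPM in iSuRe-HadCre, 9.32 CPM in iSuRe-Cre and 106 CPM in control liver, and at 63.9, 5.42 and 61.8 CPM in heart. Among the Y-linked genes, Ddx3y was at 55.7 CPM in iSuRe-HadCre, 76.9 CPM in iSuRe-Cre and 33.7 CPM in control liver, and Eif2s3y at 24.9, 48.2 and 19.2 CPM. The sexes of the pups are not given, and their part in the other values was not tested.

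Among the cells with at least 3 sinusoidal genes (49 and 787), the arterial median was 1.16 and the interferon median -0.69, near the values over all cells. The groups were also compared over the cells with fewer than 10 sinusoidal genes, 67 iSuRe-HadCre and 371 iSuRe-Cre cells, a split chosen after the values were seen. Of 8957 genes, 1.3% were past 2-fold higher and 1.54% lower. The sinusoidal list is not read there, since it made the split. Arterial members past 2-fold higher numbered 6 of 15, with a median log2 ratio of 0.88. Cxcl12 was at 1832 and 283 CPM (6.47, 5.94 to 7.05) and Gja4 at 147 and 70.2 CPM (2.09, 1.63 to 2.67), smaller ratios than over all cells. Rspo3, near equal over all cells, was at 655 and 1401 CPM here (0.468, 0.422 to 0.518).

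Interferon-stimulated genes stayed nearer to their values over all cells. In these cells 7 of 28 measured interferon-stimulated genes were past 2-fold lower and 0 higher, with a median of -0.61, against -0.66 over all cells. Isg15 was at 116 and 438 CPM (0.265, 0.207 to 0.336) and Cxcl10 at 19.4 and 146 CPM (0.132, 0.068 to 0.233). Notch4 was at 30.7 and 7.1 CPM (4.32, 2.26 to 8.11). Kdr, the main VEGF receptor, lower in iSuRe-HadCre over all cells at 412 and 772 CPM (0.534, 0.472 to 0.602), was at 334 and 333 CPM here (1, 0.861 to 1.16). Only 9 iSuRe-HadCre cells, with 62233 UMIs, had 10 or more sinusoidal genes.

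**Figure D5:**
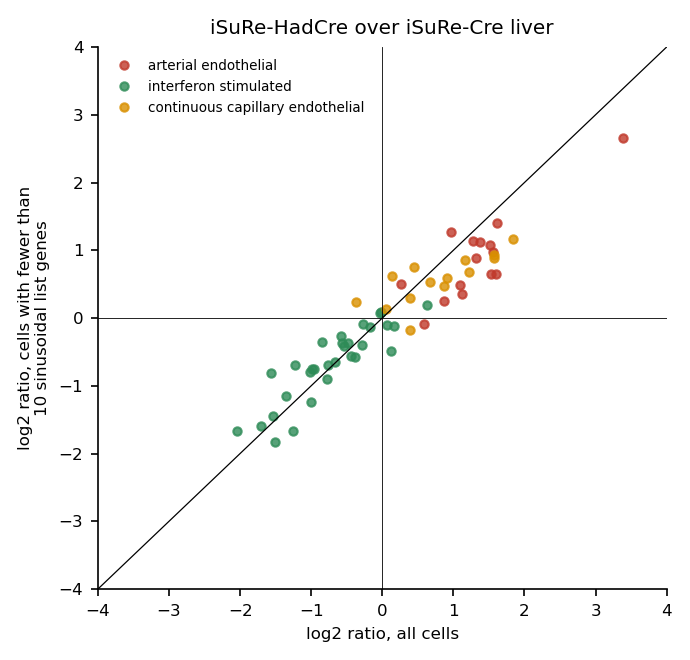
Log2 ratio of iSuRe-HadCre over iSuRe-Cre liver, with 10 CPM added, over all cells (x axis) and over cells with fewer than 10 sinusoidal list genes (y axis) for the measured members of the arterial, interferon and capillary lists, with the line of equal values. Arterial genes mostly lie below the line, with a median of 0.88 against 1.32, and interferon-stimulated genes lie on both sides of it, with -0.61 against -0.66.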

How the data were processed

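Gene and hashtag UMIs came from 1 10x library of sorted mouse liver and heart ECs. The authors ran Cell Ranger 7.1.0 on GRCm38, to which they had added the transgene sequences, and deposited raw UMI counts for 2755147 barcodes, without a cell filter or a hashtag call.

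Barcodes were kept with 2000 to 75000 gene UMIs, more than 500 genes, and mitochondrial and haemoglobin shares each below 5%. Cdh5, as the natural log of 1 plus its UMIs per 10000, had to exceed 0.9. A cell was given to a group when its tag reached 25 UMIs (140 for HTO302) and every other group tag was below its own minimum. No doublet caller was run, and barcodes with more than 1 tag over its minimum were left out. Counts were summed per group over endogenous genes, and genes with at least 50 UMIs in both liver groups together were compared, with 10 CPM added for the log2 ratio. Intervals are exact at 95% and cover counting error only. Shares of cells were also computed with each cell thinned to 2000 UMIs. Free RNA is the sum over 24194 barcodes of 10 to 100 UMIs.

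Named genes were Notch1, the 15 highest and 15 lowest by the interval bound nearest to 1, and up to 6 of each list. These 6 were the members furthest from 1 by that bound and, of the rest, the 2 of highest level. From the ranking of the 15 highest and lowest, 3604 genes that were higher in free RNA than in both groups were set aside. Of these, 29 were past 2-fold higher and 45 lower, such as Afp at 16.1 and 190 CPM. Members, the 47 lists and the comparisons were chosen with earlier results of these data known. Promoters came from RefSeq and gene positions from GENCODE M21. Python 3.11.15, scipy 1.17.1, pandas 2.3.3, Seurat 5.3.0 (HTODemux) and edgeR 4.0.16 (TMM) were used, and the interval code was tested on simulated data. Alternatives to the cell, tag, scaling and count limits are given in the closing section.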

Additional observations from a re-analysis of the deposited data

Results flagged for a closer look

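In all, 8 genes lay past 2-fold in one direction in liver and past 2-fold in the other in heart, and 6 of them are given here. With 1 sample per group the difference between tissues was not tested. On the log2 scale of iSuRe-HadCre over iSuRe-Cre with 10 CPM added, the chemokine genes Ccl4 and Ccl5 were at -1.63 in liver and 2.08 in heart, and at 2.80 in liver and -3.21 in heart. The liver value of Ccl5 rested on 2 iSuRe-HadCre cells. Csmd1 was at -1.11 in liver and 1.01 in heart, Lrmda at -1.40 and 1.09, Sostdc1 at -1.04 and 1.03, and Spon1 at 1.01 and -1.60.

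Signal was also present in tags that no group label names. At least 100 UMIs of a CMO tag or 25 of HTO304 or HTO308 were found in 23 iSuRe-HadCre and 241 iSuRe-Cre liver cells, and in 66.2% of the 5585 Cdh5 cells with no group tag over its minimum. Their own group tag was lower, with a median of 193 against 523 UMIs in the other iSuRe-Cre cells and 32 against 120 in the other iSuRe-HadCre cells. What these tags mark is not given in the sources used here.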

How the results depend on the processing

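In all, 18 other settings, and 6 more chosen after seeing the data, were run. For the main results (the Notch1 ratio, the counts past 2-fold, the sinusoidal, arterial and interferon medians and the share of cells with at least 3 sinusoidal genes), 133 values stayed within their limits and 31 moved. The arterial and interferon medians kept their direction under all 24, and the sinusoidal median under the 20 that do not split cells by its genes. The cause of a move was not tested.

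With the hashtag minimum doubled the sinusoidal shares were 76.9% in iSuRe-HadCre and 98.1% in iSuRe-Cre. HTODemux calls (287 and 854 cells) gave 48.1% and 84.2%, a sinusoidal median of -2.44 and an arterial median of 0.85, with Cntn5 at -0.23 and Wnt9b at -0.33. Without the Cdh5 limit (127 and 1129 cells) the shares were 44.9% and 80.4% and the sinusoidal, arterial and interferon medians -2.49, 0.62 and -1.06. The hepatocyte and neutrophil medians then turned to 2.34 and 0.10, with Camp at 0.43, Lcn2 at 0.017, Ltf at 0.31, Ngp at 0.28, S100a8 at 0.17, S100a9 at 0.10, Csmd1 at 2.44 and Ccl5 at -0.33. The iSuRe-Cre share was 88.7% with WPRE above 0.5 (66 and 379 cells), 94.99% with Cdh5 above 1.5, 94.1% with haemoglobin below 1% and 96.4% without cells carrying other tags, where Notch1 was at a ratio of 0.672 and Ccl5 at -1.004. Adding 1 CPM gave 503 genes higher and 659 lower, and at least 200 UMIs gave 142 higher.

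In cells with fewer than 3 sinusoidal genes (27 and 71) the Notch1 ratio was 0.574, 124 genes were lower, the arterial median was 0.57, Ccl5 was at -2.98, Mgp at -1.09 and Lrmda at 0.54. In cells with fewer than 10, 116 genes were higher and 138 lower, with an arterial median of 0.88. In cells with at least 10 (9 and 487) the Notch1 ratio was 0 (0 UMIs, 95% interval 0 to 3.14), 856 genes were higher and 1894 lower, the arterial and interferon medians were 0.40 and -0.29, and Cav1 was at -0.033, Lrmda at 0.25, Cntn5 at -1.05, Cxcl12 at -2.91, Jag1 at -1.27, Mdga2 at -0.91 and Mgp at -0.14. These values rest on 9 iSuRe-HadCre cells. Without the highest cell of each gene 132 genes were higher, and Ccl5 was at -1.16, Cdh18 at -0.53, Cntn5 at -0.40 and Rtl4 at -0.24. In iSuRe-HadCre cells with fewer than 60 UMIs of HTO302, Cntn5 was at -0.61.

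No paired analysis was possible because each group is 1 sample. The 76 iSuRe-HadCre cells limit precision, and a count of 0 UMIs allows a level of up to 4.399 CPM (3 UMIs).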
